A study of Mus musculus with 6 samples.

Results

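Levels of 6 transcription factor genes of the primitive streak, Eomes, Mixl1, Mesp1, Gsc, Evx1 and Lhx1, were read on 6 Affymetrix mouse arrays. A probe set was taken as a member if its platform annotation gave exactly one of these symbols, which held for 8 of the 34945 probe sets tested. Eomes and Lhx1 had 2 probe sets each, and the other genes had 1 each. All 6 samples were made from ER71 A17C, a mouse embryonic stem (ES) cell line of 129P2/Ola background that carries Etv2 under doxycycline control (ER71 A2Lox.cre). After embryoid body differentiation in hanging drops, under conditions that induce mesoderm, Flk1-positive cells were isolated on day 3.5. The induced group, 3 arrays, received doxycycline at 0.5 microg/ml from day 3 for 12 hours, and the control group, 3 arrays, was untreated according to the design text, although the treatment field carries the doxycycline text on every sample. Every sample held the cassette, and no doxycycline-treated line without it was analysed here. Doxycycline and Etv2, an ETS-family regulator of blood and endothelial fate, thus cannot be told apart as sources of a difference.

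The primitive streak is the site where epiblast cells leave the epithelium and become mesoderm or definitive endoderm, under Nodal, Wnt, BMP and FGF signals. Eomes is a T-box factor needed for that exit and for definitive endoderm, and in the mouse embryo it acts upstream of Mesp1. Mixl1 is a paired-like homeobox factor that responds to Nodal and BMP. Mesp1 is a basic helix-loop-helix factor that marks the earliest cardiovascular mesoderm. Gsc, or goosecoid, is a homeobox repressor of the anterior streak, Evx1 is an even-skipped homeobox factor of the posterior streak, and Lhx1 is a LIM-homeobox factor of anterior mesoderm and endoderm. Flk1 is the product of Kdr and is carried by mesoderm that has passed through the streak.

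RefSeq promoter windows (GRCm38.p6), 250 bases before to 50 bases after the transcript start, were matched by symbol for 5 of the 6 genes. The windows of Mesp1, Evx1 and Gsc are printed, and each held a match to the motifs listed next. Mesp1 and Evx1 followed the same order over the arrays, and Gsc departed from that order. Lhx1, and Eomes on its brighter probe set, also followed that order, but their windows held no match and are not printed. Mixl1, which followed that order too, had no window. The Gsc window matched only the E-box motif, which 72.3% of all such mouse windows held. Whether holding a match goes with the shared order was thus not tested. Capitals mark every match, on either strand, to 8 motifs: AGGTGT for T-box factors, CTTTGA for the TCF/LEF family, CANNTG for the E-box, AATCCACA for FOXH1, TAATTA for homeodomain proteins, TAATCC for homeodomains of the K50 class, CCGGAA for the ETS family and AGATAA for the GATA family.
Mesp1, chr7:79793541-79793840, minus strand: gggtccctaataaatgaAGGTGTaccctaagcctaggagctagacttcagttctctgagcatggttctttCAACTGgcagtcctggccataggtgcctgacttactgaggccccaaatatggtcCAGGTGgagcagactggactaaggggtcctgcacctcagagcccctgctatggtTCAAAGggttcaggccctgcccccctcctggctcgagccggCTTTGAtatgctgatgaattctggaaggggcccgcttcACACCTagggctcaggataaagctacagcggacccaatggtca
Evx1, chr6:52313248-52313547, plus strand: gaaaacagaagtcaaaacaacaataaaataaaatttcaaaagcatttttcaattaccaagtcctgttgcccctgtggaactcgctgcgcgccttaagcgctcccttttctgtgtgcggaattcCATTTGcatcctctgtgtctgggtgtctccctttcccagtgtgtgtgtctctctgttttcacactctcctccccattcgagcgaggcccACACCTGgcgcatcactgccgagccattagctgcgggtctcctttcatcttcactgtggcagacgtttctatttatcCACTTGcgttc
Gsc, chr12:104473187-104473486, minus strand: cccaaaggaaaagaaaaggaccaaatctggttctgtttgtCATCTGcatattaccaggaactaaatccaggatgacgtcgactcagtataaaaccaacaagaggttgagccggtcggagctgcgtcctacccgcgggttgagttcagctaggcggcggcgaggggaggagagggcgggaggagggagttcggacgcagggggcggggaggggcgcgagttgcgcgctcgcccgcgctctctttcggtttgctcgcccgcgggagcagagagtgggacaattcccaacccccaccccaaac
The Mesp1 window held T-box matches beginning at positions -233 and 7, where 0 is the first transcribed base, and TCF/LEF matches at -72 and -31. Its E-box matches lay at -180 and -126. The Evx1 window held a T-box match at -38 that overlapped an E-box at -37, with other E-boxes at -127 and 39, and the Gsc window held an E-box at -210. The windows of Eomes (chr9:118477939-118478238) and Lhx1 (chr11:84525485-84525784) held no match to these letters. Of 32851 such mouse windows, 13.7% held the T-box motif, 16.0% the TCF/LEF motif and 72.3% an E-box. The motifs with no match in a member window were held by 0.855% (FOXH1), 5.29% (homeodomain), 7.06% (K50 class), 14.9% (ETS) and 11.2% (GATA) of all windows. These matches describe the printed letters and are not binding data.

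Etv2 and Kdr give the setting for the members. Etv2 stood at 9.92, 8.59 and 10.71 in control arrays 1, 2 and 3 and at 13.27, 13.28 and 13.36 in induced 1, 2 and 3, on the log2 scale of the RMA levels that is used throughout. Kdr, the gene of the sorted protein, stood at 10.02, 8.40 and 10.97 in the controls and at 9.56, 9.36 and 10.52 in the induced arrays. Control 2 thus had the lowest level of both genes, and the Kdr groups overlapped. The log2 fold change of Etv2, induced minus control, was 3.56 ± 0.46 (SE), and limma did not call it (adjusted p = 0.837). Since these are bulk samples, fewer cells of a type and less RNA per cell cannot be told apart.

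The level of Eomes varied little over the arrays. Its probe set 1435172_at read 13.55, 13.35 and 13.70 in control arrays 1, 2 and 3 and 13.41, 13.38 and 13.49 in induced 1, 2 and 3. Its other probe set, 1426001_at, read 13.24, 13.05 and 13.25 in the controls and 13.12, 13.14 and 13.17 in the induced arrays. On both probe sets control 3 was highest, control 2 was lowest and the groups overlapped. The spread from lowest to highest array was 0.34 on 1435172_at and 0.20 on 1426001_at, or 1.27-fold and 1.15-fold. The probe sets followed each other with Pearson r = 0.897 over the 6 arrays, given as a description.

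Mixl1 (1421505_at) also kept to a narrow band. It read 13.64, 13.14 and 13.64 in control arrays 1, 2 and 3 and 13.45, 13.38 and 13.62 in induced 1, 2 and 3. Controls 1 and 3 and induced 3 were nearly equal, while control 2 stood apart below them, and the groups overlapped. The spread over the arrays was 0.49, or 1.41-fold.

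Mesp1 (1426557_at) was among the members that varied widely. It read 12.92, 11.30 and 13.05 in control arrays 1, 2 and 3 and 12.04, 11.85 and 12.61 in induced 1, 2 and 3. The highest and the lowest array were both controls, 1.76 log2 units or 3.38-fold apart, and the 3 induced arrays lay between them. Induced 1 was 0.88 below control 1 (a difference of -0.88), and induced 3 differed from control 3 by -0.44, while induced 2 was 0.56 above control 2.

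Lhx1 varied as widely. Probe set 1450428_at read 12.53, 11.29 and 12.75 in control arrays 1, 2 and 3 and 12.07, 11.90 and 12.41 in induced 1, 2 and 3. Probe set 1421951_at read 12.22, 10.84 and 12.72 in the controls and 11.59, 11.54 and 12.11 in the induced arrays. Control 3 was again highest and control 2 lowest on both, and the groups overlapped. The spread was 1.46 on 1450428_at (2.75-fold) and 1.88 on 1421951_at (3.68-fold). The annotation lists the same accession for both probe sets, so they are not separate evidence, and they followed each other with r = 0.987 over the 6 arrays.

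Evx1 (1421627_at) was intermediate in its spread. It read 11.28, 10.49 and 11.28 in control arrays 1, 2 and 3 and 10.90, 10.90 and 11.15 in induced 1, 2 and 3. Controls 1 and 3 were equal to within 0.01 and control 2 was lowest, 0.79 log2 units or 1.73-fold below the highest array, and the groups overlapped.

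Gsc (1421412_at) had another order. It read 10.46, 9.90 and 10.17 in control arrays 1, 2 and 3 and 10.37, 10.10 and 10.12 in induced 1, 2 and 3. The arrays of replicate 1 were highest in both groups and control 2 was again lowest, over a spread of 0.56 (1.47-fold), and the groups overlapped. By replicate number the mean Gsc level was 10.42 for number 1 and 10.14 for number 3, with number 2 lowest. For Mesp1 the same means were 12.48, 11.58 and 12.83 for numbers 1, 2 and 3, and for Lhx1 (1450428_at) 12.30, 11.59 and 12.58, so that number 3 was highest.

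**Figure D1:**
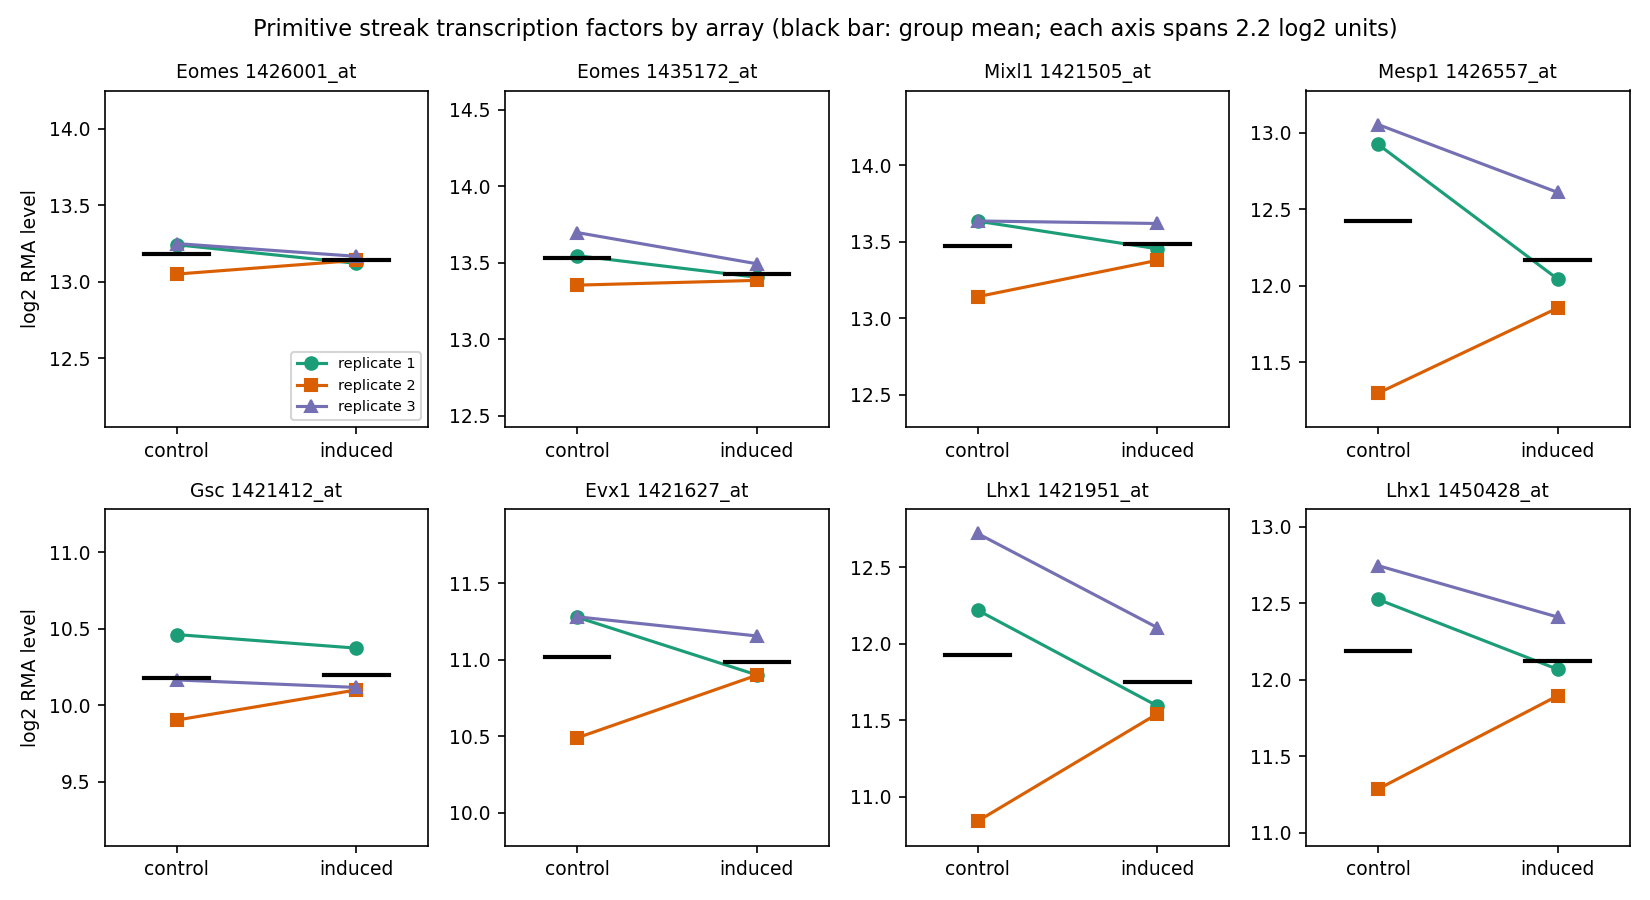
Log2 RMA level (vertical axis) of each of the 8 member probe sets in the control and induced arrays (horizontal axis). Points are arrays, lines join arrays with the same replicate number, black bars are group means, and every vertical axis spans the same number of log2 units. Control 2 is the lowest array in 8 of 8 panels, and the 3 induced arrays lie between the lowest and the highest control in each.

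The comparison of induced with control arrays asks whether 12 hours of Etv2 induction altered these genes. None of the 8 probe sets differed between the groups beyond the spread of the replicates. The log2 fold change, induced minus control, was -0.26 ± 0.45 (SE) for Mesp1, with a 95% interval of -1.30 to 0.79, from means of 12.42 ± 0.98 (SD, n = 3) for the controls and 12.17 ± 0.39 (SD, n = 3) after induction. It was -0.061 ± 0.36 for Lhx1 on 1450428_at (-0.89 to 0.77), and -0.18 ± 0.44 on 1421951_at (-1.20 to 0.84). The intervals of Mesp1 and Lhx1 were the widest of the members, so the size of change they leave room for was larger than for the other genes. These intervals come from the unpaired fit. With the replicate block the SE was smaller, at 0.25 for Mesp1, 0.21 for Lhx1 on 1450428_at and 0.26 on 1421951_at. The adjusted p by limma was then 0.998 for each of these.

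Eomes had a log2 fold change of -0.10 ± 0.10 (SE) on 1435172_at, with an interval of -0.34 to 0.13, and -0.039 ± 0.083 on 1426001_at, with an interval of -0.23 to 0.16. Mixl1 had 0.014 ± 0.15 (-0.33 to 0.36), Gsc 0.020 ± 0.15 (-0.33 to 0.37) and Evx1 -0.031 ± 0.21 (-0.53 to 0.47). The adjusted p by limma was 0.9997 for each of the 8, and the exact permutation test, which cannot go below 0.1 for 3 arrays against 3, gave p from 0.4 to 1. Limma called 0 of the 8 probe sets, where 0.00286% of all probe sets were called, the 1 call being Hprt. Etv2, the induced gene itself, was not called (adjusted p = 0.837 by limma). The lack of a call thus does not by itself show that a member was unchanged. At an unadjusted p under 0.05 there were again 0 of the 8, against 1.51% of all probe sets. Non-overlapping groups were found in 0 of the 8, against 6.46% of all probe sets.

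The members shared a direction within replicate numbers that the group means do not show. In 8 of 8 probe sets the induced array was lower than the control in pairs 1 and 3 and higher in pair 2, a pattern found in 16.9% of all probe sets. All 3 induced arrays lay inside the control range in 8 of 8, against 22.4% of all probe sets. The SD was larger in controls than in induced arrays in 8 of 8, by 1.83 times for Gsc and up to 4.89 times for Eomes on 1426001_at, against 48.1% of all probe sets. Control 2 was the lowest of the 6 arrays in 8 of 8, against 15.4% of all probe sets. The members follow one another over the arrays, so these counts are not 8 separate observations. The patterns counted are those the members' own values show, so the shares of all probe sets are a background and not a test.

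The direction of some members depended on which arrays were kept. Without induced 1 the log2 fold change reversed for Evx1 (0.011) and Gsc (-0.068). Without induced 2 it reversed for Evx1 (0.012) and Lhx1 on 1450428_at (0.053), and without induced 3 for Mixl1 (-0.054). Without control 1 it turned positive for Evx1 (0.10) and Lhx1 on 1450428_at (0.11). Without control 3 the log2 fold change turned positive for Mesp1 (0.058), Evx1 (0.10) and Lhx1 (0.22 on both probe sets). Without control 2 it was negative for 8 of 8 probe sets, against 48.8% of all probe sets, and this was a reversal for Mixl1 and Gsc. This restates that control 2 was the lowest array and pairs 1 and 3 were lower, and is no separate observation. It was then -0.82 ± 0.21 (SE) for Mesp1 (unadjusted p = 0.00533 by limma), -0.51 ± 0.16 for Lhx1 on 1450428_at and -0.72 ± 0.21 on 1421951_at, and -0.29 ± 0.11 for Evx1. It was -0.19 ± 0.098 for Eomes on 1435172_at, -0.10 ± 0.088 on 1426001_at, -0.15 ± 0.11 for Mixl1 and -0.12 ± 0.13 for Gsc. The adjusted p by limma was 0.976 for each of the 8, so 0 of the 8 were called, against 0.00286% of all probe sets in the same fit. In that fit 1485 of 34945 probe sets had an unadjusted p under 0.05 by limma, against 526 with all arrays. The array left out was the lowest for every member, so these fold changes and their errors are no evidence of a decrease. Kdr had a log2 fold change of 0.016 with all arrays and -0.68 without control 2, and its part in the members' values was not tested.

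**Figure D2:**
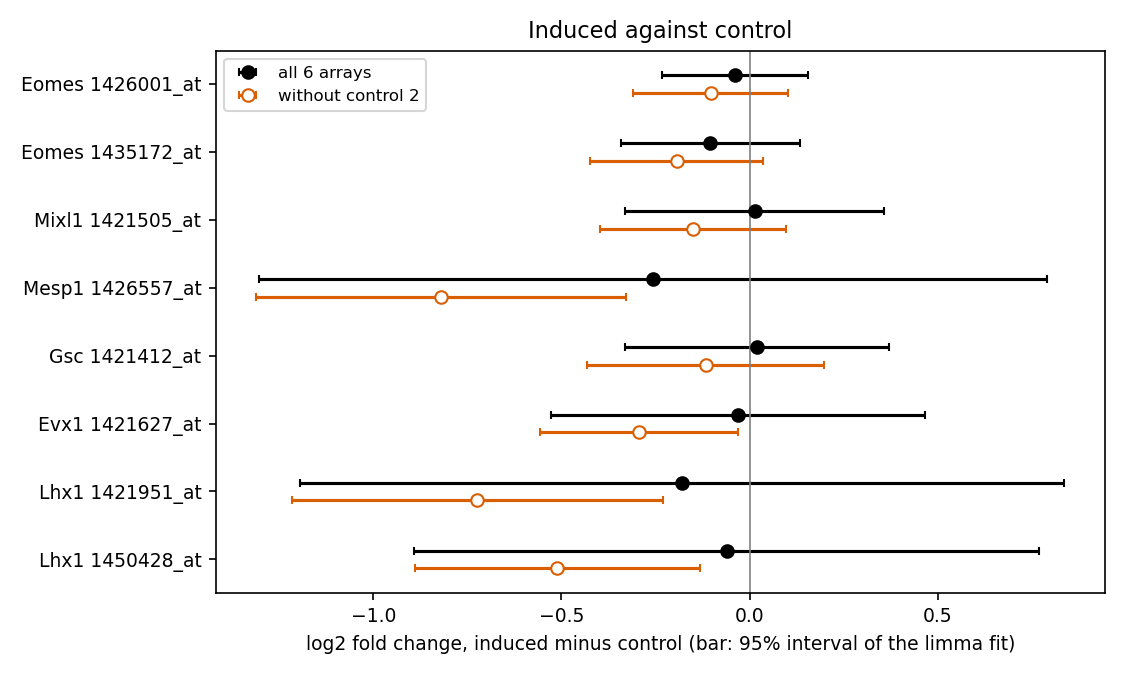
Log2 fold change, induced minus control (horizontal axis), of each member probe set (vertical axis). Filled points use all 6 arrays, open points leave out control 2, and bars are 95% intervals of the limma fit. All 8 filled points have intervals that include 0, and all 8 open points lie below 0, where the array left out was the lowest for every probe set. Fits without another array are not drawn.

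The genes differed in how far they ranged over the arrays. The median probe set of the table had a range of 0.33 log2 units, and 5% of probe sets exceeded 0.84. A range as large as that of Lhx1 was found in 0.318% of probe sets for 1421951_at and in 0.95% for 1450428_at, and one as large as that of Mesp1 in 0.464%. Evx1 came next, at 6.03%, then Gsc at 15.5% and Mixl1 at 21.7%. Eomes was matched or exceeded by 47.6% of probe sets on 1435172_at and 83.1% on 1426001_at, and so moved no more than a typical probe set. Saturation flags were not used here, so how far the top of the scale limits the range of Eomes and Mixl1 was not tested.

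**Figure D3:**
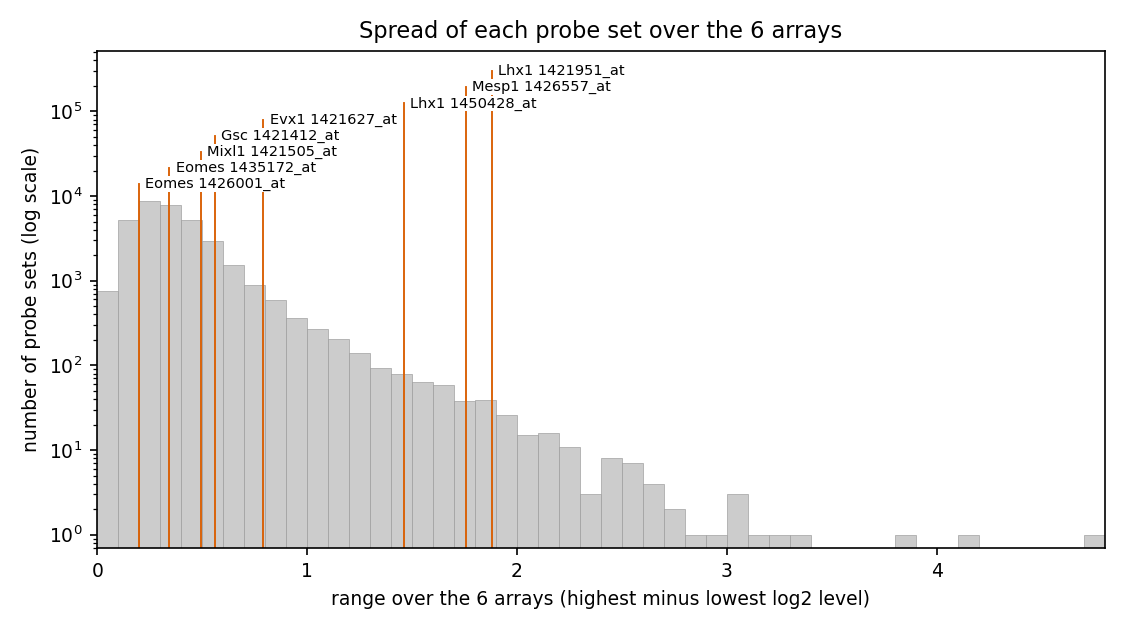
Number of probe sets (vertical axis, log scale) by their range over the 6 arrays in log2 units (horizontal axis, bins of 0.1). Orange lines mark the 8 member probe sets. The Lhx1 and Mesp1 lines, at 1.46, 1.76 and 1.88, lie in the far tail, and the Eomes lines, at 0.20 and 0.34, near the bulk of the table.

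Across the 6 arrays, 5 of the 6 genes stood in the same order. Eomes (1435172_at), Mixl1, Mesp1, Evx1 and Lhx1 ran from control 3 through control 1, induced 3, induced 1 and induced 2 down to control 2. This order, read from the members themselves, was found in 117 of the 18193 genes (0.643%) and its reverse in 81 (0.445%). The steps between neighbouring arrays in it were often small, as between controls 3 and 1 for Mixl1 and Evx1. In all, 21 relations were computed, 15 between members and 6 with Kdr, each gene read on its probe set with the highest mean. The members were chosen with earlier results of these data known. The permutation also treats the arrays as exchangeable, though they fall into control and induced groups that share replicate numbers. The p-values of these relations are thus descriptions, and the share of all gene pairs with such an r is not given here.

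Evx1 and Lhx1 had Pearson r = 0.986 (exact permutation p = 0.00139, adjusted 0.00486), with Spearman rho = 1 (p = 0.00278, adjusted 0.00583). Mesp1 and Lhx1 had r = 0.985 and Mixl1 and Evx1 r = 0.986, with the same p-values. Over the 10 pairs without Gsc, r ran from 0.795 to 0.986. Of these, 9 passed after adjustment, and the exception was Eomes with Mixl1 (r = 0.795, exact permutation p = 0.0375, adjusted 0.0525; by rank, rho = 1, p = 0.00278, adjusted 0.00583). Without the 2 arrays farthest from the median of the first gene, r lay between 0.895 and 0.992. In the 4 pairs led by Eomes those arrays were controls 1 and 3, so that control 2 stayed in, and in the others control 2 was left out. A replicate number holds only 2 arrays, so no r can be had within it. The induced-minus-control difference had the same sign in 3 of 3 numbers for all 21 relations, those of Gsc included. This restates that every member, and Kdr, was lower in pairs 1 and 3 and higher in pair 2, and is no separate observation.

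Gsc stood apart from the other members. Its r with them ran from 0.330 for Eomes to 0.652 for Mixl1, and 0 of these 5 relations passed (exact permutation p from 0.144 to 0.536, adjusted 0.190 to 0.536; by rank, rho = 0.714, p = 0.136, adjusted 0.143 in each). Without the 2 farthest arrays its r ranged from -0.377 with Evx1 to 0.454 with Mesp1. The difference between the r of Gsc and those of the other members was not tested.

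Kdr followed the same members. Lhx1 and Kdr had r = 0.964 (exact permutation p = 0.00417, adjusted 0.0109; by rank, rho = 0.943, p = 0.0167, adjusted 0.0233), and over the 5 members other than Gsc r with Kdr ran from 0.882 to 0.964. Without the 2 farthest arrays r was 0.770 for Mixl1, 0.785 for Mesp1, 0.769 for Evx1 and 0.841 for Lhx1, where control 2 was among those left out. It was 0.960 for Eomes, where controls 1 and 3 were left out and control 2 stayed in. Gsc and Kdr had r = 0.409 (exact permutation p = 0.410, adjusted 0.430; by rank, rho = 0.543, p = 0.297, adjusted 0.297). Kdr encodes the protein the sort selected on, and the arrays differed widely in its RNA.

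**Figure D4:**
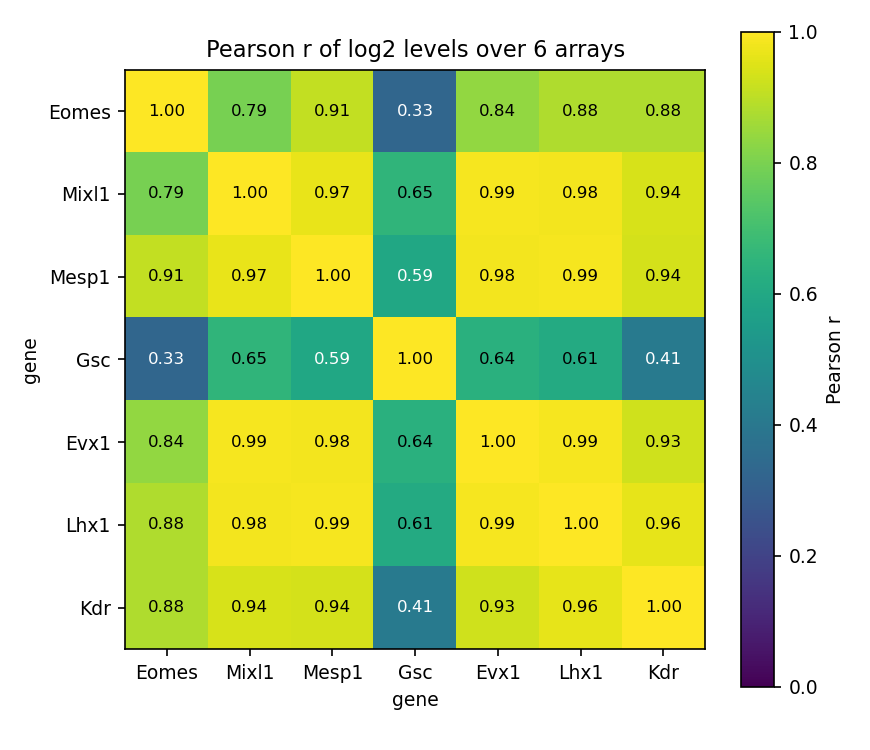
Pearson r of log2 levels over the 6 arrays for each pair of the 6 members and Kdr, one gene per row and per column, with the value written in each cell and shown by colour. The Gsc row holds the lowest values, from 0.33 to 0.65, and the pairs among the other members lie from 0.79 to 0.99.

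Genes with the profiles nearest to each member were sought among those ranging over at least 1 log2 unit. For Lhx1 the first 5 by Pearson r over the 6 arrays were Aplnr (0.998), Dll3 (0.995), Six2 (0.993), Lhx1os (0.993) and Asb4 (0.992). Aplnr, the apelin receptor gene, read 13.19, 11.89 and 13.42 in control arrays 1, 2 and 3 and 12.68, 12.54 and 13.14 in induced 1, 2 and 3. Lhx1os, a noncoding gene next to Lhx1 in the RefSeq gene order, read 9.36, 7.73 and 9.69 in the controls and 8.57, 8.47 and 9.26 in the induced arrays. Its order over the arrays was that of Lhx1, and so was that of Aplnr.

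For Mesp1 the nearest were Lhx1os (0.992), Grrp1 (0.990), Dll1 (0.988), Lhx1 (0.985) and P3h2 (0.984). Dll1, a Notch ligand gene of nascent mesoderm, read 10.05, 8.55 and 10.50 in control arrays 1, 2 and 3 and 9.29, 9.21 and 9.90 in induced 1, 2 and 3. Evx1 was nearest to Chst7 (0.992), Inka1 (0.990), Aplnr (0.988), Cbln1 (0.986) and Lhx1 (0.986). Lhx1 thus appears among the nearest genes of both Mesp1 and Evx1. Of the members only Mesp1 and Lhx1 ranged over at least 1 log2 unit, so no other member could be listed.

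Mixl1 was nearest to Inka1 (0.999), Rftn1 (0.997), Lmo1 (0.996), Dkk1 (0.996) and Chst7 (0.995). Dkk1, a secreted Wnt antagonist of anterior mesoderm and endoderm, read 11.40, 10.25 and 11.35 in control arrays 1, 2 and 3 and 10.97, 10.71 and 11.29 in induced 1, 2 and 3. Eomes was nearest to the Wnt ligand gene Wnt5b (0.990), Tgfb1 (0.983), Notch1 (0.979), Slc5a3 (0.973) and the heart factor gene Hand2 (0.972).

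For Gsc the values were lower, with Cldnd1 (0.909), Meis2 (0.873), Vldlr (0.850), Asxl3 (0.847) and Fgf10 (0.834). Meis2, a homeobox cofactor gene, read 10.79, 9.29 and 10.23 in control arrays 1, 2 and 3 and 10.26, 9.56 and 10.28 in induced 1, 2 and 3. None of the 5 genes nearest to Gsc was among the 5 nearest to any other member.

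The gene neighbours of Evx1 and Mesp1, chosen after their values were seen, also had control 2 lowest. Evx1os, a noncoding gene next to Evx1 in the RefSeq gene order, read 9.98, 9.29 and 10.41 in control arrays 1, 2 and 3 and 9.81, 9.62 and 10.18 in induced 1, 2 and 3. Mesp2, the paralogue of Mesp1 that acts in somite formation, read 10.54, 9.35 and 10.79 in the controls and 9.67, 9.59 and 10.08 in the induced arrays. Its log2 fold change was -0.45 ± 0.35 (SE), with an interval of -1.26 to 0.37.

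Signals that act on the streak were not called. Of 22 measured ligands, receptors and effectors of the Nodal, BMP, Wnt and FGF pathways, limma called 0, against 0.0055% of all genes. There were 9 with a positive and 13 with a negative log2 fold change, and the median was -0.029, beside 0.0026 over all genes. Nodal itself had its highest control level where the members were lowest, at 11.74, 12.32 and 11.11 in control arrays 1, 2 and 3 and 12.02, 11.99 and 11.46 in induced 1, 2 and 3. Lefty1, a Nodal antagonist gene, had the same form, at 10.57, 11.22 and 9.97 in the controls and 10.92, 10.93 and 10.26 in the induced arrays. Bmp4 read 9.22, 8.66 and 9.76 in the controls and 9.07, 8.89 and 9.95 in the induced arrays, low in control 2 as the members were. The Nodal co-receptor gene Tdgf1 read 13.73, 13.61 and 13.86 in the controls and 13.74, 13.67 and 13.85 in the induced arrays. Ctnnb1, which encodes beta-catenin, was flat, from 13.86 to 13.93 over all arrays. Lefty2, another Nodal antagonist gene, chosen after its values were seen, was the 1 gene of this list at an unadjusted p under 0.05 (log2 fold change -0.57 ± 0.20, adjusted p = 0.9997 by limma).

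Other genes of the streak and of newly formed mesoderm often had their lowest level in control 2, as the members did. Of 15 measured, limma called 0, 4 had a positive and 11 a negative log2 fold change, and the median was -0.065. Control 2 was the lowest array in 10 of the 15, against 3043 of all 18193 genes, and 11 of the 15 were lower in pairs 1 and 3 and higher in pair 2, against 3358 of all genes. Tbx6, a T-box gene of paraxial mesoderm, read 8.80, 7.30 and 9.15 in control arrays 1, 2 and 3 and 8.15, 8.06 and 8.84 in induced 1, 2 and 3. Dll3, a Notch pathway gene, read 11.33, 9.94 and 11.73 in the controls and 10.79, 10.71 and 11.31 in the induced arrays. Dll3 had the array order of Mesp1, and Tbx6 differed from it in that induced 3 was just above control 1. The Wnt antagonist gene Frzb read 12.08, 10.92 and 12.42 in the controls and 11.54, 11.34 and 12.13 in the induced arrays. Sp5, a Wnt target gene, read 12.36, 11.73 and 12.58 in the controls and 12.02, 12.15 and 12.08 in the induced arrays, where induced 2 was not the lowest of its group. Fgf17 went another way on its probe set 1456239_at, chosen after its values were seen, at 7.91, 8.11 and 8.01 in the controls and 7.36, 7.42 and 7.27 in the induced arrays (log2 fold change -0.66 ± 0.085, adjusted p = 0.837 by limma). On its brighter probe set, 1421523_at, Fgf17 had -0.31 ± 0.19 and the groups overlapped.

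Genes of the anterior streak and endoderm, where Gsc and Lhx1 act, gave 0 calls among 14 measured, with 8 positive and 6 negative log2 fold changes and a median of 0.033. Control 2 was lowest in 9 of the 14. Cxcr4, a chemokine receptor gene of definitive endoderm and mesoderm, read 10.56, 8.50 and 11.58 in control arrays 1, 2 and 3 and 9.59, 9.25 and 10.42 in induced 1, 2 and 3. Gata4 read 9.67, 7.85 and 10.78 in the controls and 8.76, 8.67 and 10.14 in the induced arrays. Sox17, an endoderm factor gene, read 10.02, 8.29 and 10.81 in the controls and 9.43, 9.56 and 10.61 in the induced arrays. These 3 genes spanned more than the members did, while Otx2, a head organizer factor gene, stayed between 12.06 and 12.33. Foxa1, an endoderm factor gene chosen after its values were seen, was the 1 gene of this list at an unadjusted p under 0.05. It read 8.23, 8.13 and 8.22 in the controls and 8.81, 8.40 and 8.59 in the induced arrays, without overlap (log2 fold change 0.41 ± 0.11, interval 0.15 to 0.67, adjusted p = 0.9997 by limma).

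Lateral and cardiac mesoderm genes linked to Mesp1 gave 0 calls among 17 measured. Of these 3 had a positive and 14 a negative log2 fold change, with a median of -0.093, and control 2 was lowest in 12. Pdgfra, a receptor gene of nascent mesoderm, read 11.71, 9.89 and 11.78 in control arrays 1, 2 and 3 and 10.89, 10.18 and 11.34 in induced 1, 2 and 3. Foxc1 read 9.18, 7.17 and 8.91 in the controls and 8.02, 7.84 and 8.41 in the induced arrays, and Tbx3 read 10.18, 8.55 and 11.05 and 9.58, 9.15 and 10.77. The atrial myosin gene Myl7 read 7.25, 6.20 and 8.18 in the controls and 6.36, 6.63 and 7.83 in the induced arrays. Controls 1 and 3 lay above control 2 for each of these genes, and the groups overlapped.

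Protein partners of the members were split in direction. Of 17 LIM-domain cofactors, E proteins, Id proteins and Groucho corepressors, 0 were called, 9 had a positive and 8 a negative log2 fold change, the median was 0.054, and control 2 was lowest in 8 and highest in 3. Ssbp2, a partner of LIM-domain cofactors, read 9.61, 10.11 and 9.01 in control arrays 1, 2 and 3 and 9.89, 9.79 and 9.42 in induced 1, 2 and 3, high where Lhx1 was low. Id2 and Id4, which bind E proteins, had log2 fold changes of 0.41 ± 0.24 (SE) and 0.11 ± 0.23. Id1 had -0.073 ± 0.19, and Tcf12, an E protein gene, 0.054 ± 0.12. Tle1, a Groucho corepressor gene chosen after its values were seen, was the 1 partner at an unadjusted p under 0.05, at 9.06, 9.19 and 9.23 in the controls and 9.42, 9.44 and 9.42 in the induced arrays (log2 fold change 0.27 ± 0.077, adjusted p = 0.9997 by limma). Of the 5 measured paralogues, Tbr1, Tbx21, Gsc2, Evx2 and Lhx5, 0 were called, 3 had a positive and 2 a negative log2 fold change, with a median of 0.016, and none ranged over as much as 1 log2 unit. Tbx21 and Lhx5 had log2 fold changes of -0.018 ± 0.14 and 0.027 ± 0.13, and Gsc2 and Evx2 of 0.074 ± 0.089 and 0.016 ± 0.078.

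Markers of the cells a Flk1 sort of an embryoid body could hold were set beside the members. The mean level of 7 Flk1-positive mesoderm genes, Etv2 among them, ran from 8.94 to 10.66 in controls and from 10.07 to 10.70 in induced arrays, and control 2 was lowest in 7 of 7. Without Etv2, the induced gene itself (an alternative chosen after the data were seen), the mean of the other 6 was 10.17, 8.997 and 10.65 in control arrays 1, 2 and 3 and 9.68, 9.53 and 10.26 in induced 1, 2 and 3. It was then lower in pairs 1 and 3, by -0.49 and -0.39, and higher in pair 2, by 0.53, as each member was. The mean of the 6 members ran from 11.58 to 12.43 in controls and from 11.92 to 12.23 in induced arrays. The mean of 14 pluripotency genes ran the other way within the controls, at 10.12, 10.69 and 10.02 in control arrays 1, 2 and 3 and 10.41, 10.43 and 10.19 in induced 1, 2 and 3. Control 2 was the highest array for 10 of the 14 and the lowest for 0, against 2702 and 3043 of all 18193 genes. Utf1, a gene of undifferentiated ES cells and epiblast, read 10.13, 11.44 and 9.71 in the controls and 10.70, 10.89 and 10.40 in the induced arrays. Zfp42 read 8.65, 9.76 and 8.02 in the controls and 9.36, 9.10 and 8.79 in the induced arrays, and Sox2 read 10.71, 11.78 and 10.45 and 10.99, 10.92 and 10.77. Pou5f1 read 13.13, 13.46 and 12.67 in the controls and 13.33, 13.31 and 13.30 in the induced arrays, while Dnmt3b stayed between 13.40 and 13.84. The part of these cells in the members' levels was not tested.

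The other marker lists spanned little in their mean level, and limma called 0 of their genes. The mean of 11 endothelial genes ran from 6.89 to 6.96 in controls and from 6.94 to 7.06 in induced arrays, with 8 positive and 3 negative log2 fold changes. The log2 fold change was 0.19 ± 0.14 (SE) for Cdh5, 0.058 ± 0.16 for Sox7, 0.043 ± 0.12 for Pecam1, -0.011 ± 0.10 for Egfl7 and 0.12 ± 0.11 for Flt1. The mean of 11 blood genes ran from 7.40 to 7.43 and from 7.36 to 7.64, with 8 positive and 3 negative. Myb, a gene of blood progenitors, was the blood gene that ranged most, and stood at 10.19 in control 2 and between 8.15 and 9.19 in the other arrays (log2 fold change -0.049 ± 0.47). Hbb-bh1 had a log2 fold change of 0.013 ± 0.25, Tal1 0.17 ± 0.20 and Itga2b 0.14 ± 0.12. The mean of 9 visceral endoderm genes ran from 7.53 to 7.54 and from 7.55 to 7.71, with 7 positive and 2 negative. Amn had a log2 fold change of 0.19 ± 0.13, Cubn 0.24 ± 0.096, Ttr 0.066 ± 0.12 and Rhox5 -0.18 ± 0.089. The mean of 7 neuroectoderm genes ran from 6.61 to 6.70 and from 6.55 to 6.78, with 3 positive and 4 negative. Zic1 had a log2 fold change of -0.21 ± 0.18, Six3 0.13 ± 0.13, Pax6 0.10 ± 0.13 and Nes -0.088 ± 0.089. Induced 2 had the highest mean of these 4 lists and was not the highest array for any member. Array levels have no true zero, so none of these markers can be given as absent.

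**Figure D5:**
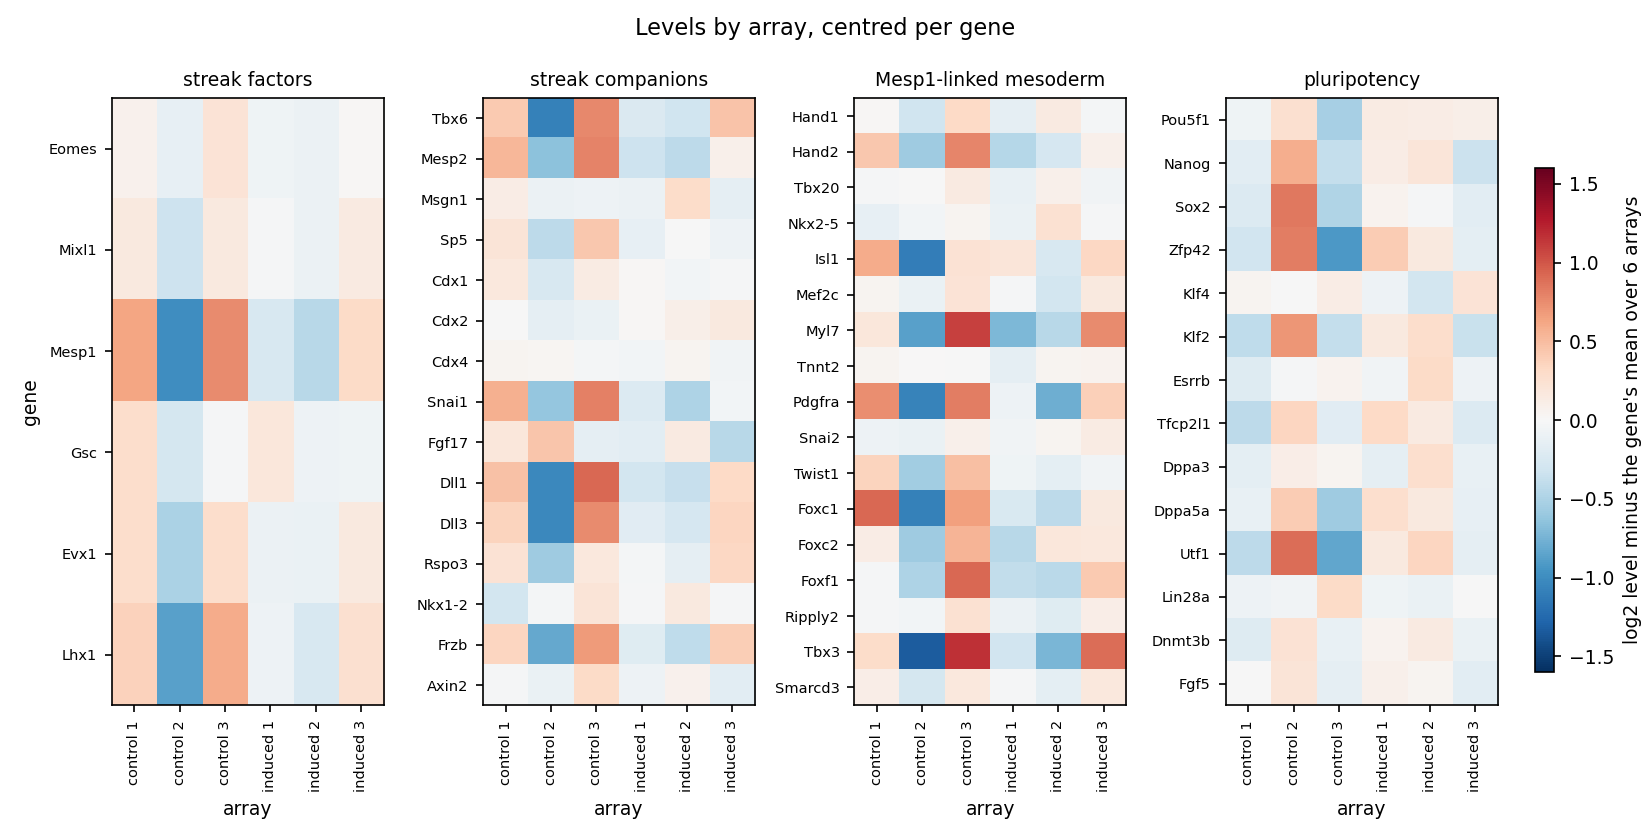
Log2 level minus the gene's mean over the 6 arrays (colour) for each gene (rows) in each array (columns), in the 6 streak factors, 15 other streak genes, 17 mesoderm genes and 14 pluripotency genes. Control 2 is the lowest column for 6 of 6 streak factors and for 10 of 15 and 12 of 17 genes of the mesoderm panels, and the highest for 10 of 14 pluripotency genes.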

How the data were processed

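RNA of 3 control and 3 induced samples was measured on Affymetrix arrays, and groups and replicate numbers were read from the sample titles. The deposited table holds log2 expression levels of 45101 probe sets that the authors computed by RMA, as the submitters' processing notes say. No source used here gives its version, and scanner files were not used. Array medians were 7.34 to 7.40. Precision is limited by the number of arrays, and no label says whether replicates were separate cultures, so p-values measure only the spread between these samples.

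Probe sets were named through GEO's platform annotation: 34958 had 1 symbol, 932 had several and 9211 had no entry. Setting aside 13 Affymetrix controls left 34945, which were fitted with limma 3.58.1 in R 4.3.3 (lmFit and eBayes, two-sided, Benjamini-Hochberg over all 34945, threshold 0.05). Entrez identifiers of 34754 probe sets were found in RefSeq. The error given with a fold change is the standard error of that fit. For lists each of the 18193 genes was read on its probe set with the highest mean. The fit was tested on simulated data.

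From each list the members past the threshold were named or, with none, the 3 with the largest range and the 2 with the highest level, the fold change standing in for the array values in some lists. The 5 nearest genes leave out clone names. Kdr and Etv2 were always named. The members and lists were chosen with earlier results of these data known. The shares of all genes set beside them are thus a background and not a test.

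Replicate numbers are shared by the groups, and deviations from group means correlated at r = 0.161, 0.218 and 0.411 for numbers 1, 2 and 3, all over 0.1. Differences within a number are therefore given as pairs, though no label gives a shared culture. The main fit, with its errors and intervals, was unpaired. Unlike numbers also correlated, at 0.299 for control 2 with induced 1 and 0.236 for control 1 with induced 3, so not every array correlated best with its own number. Alternatives were the replicate block, quantile normalization, median centring, a filter on dim probe sets, 1 probe set per gene, array weights and arrays left out.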

Additional observations from a re-analysis of the deposited data

How the results depend on the processing

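Limma called 0 of the 8 member probe sets under every alternative run, at adjusted p from 0.964 to 1. Of 118 member fold changes recomputed, 92 kept their direction and 26 reversed. With all 6 arrays, 3 of 46 reversed: Evx1 was 0.022 after quantile normalization, Gsc -0.031 with array weights and Mixl1 -0.0044 after median centring. With arrays left out, singly or as the pair of a number (the pairs chosen after the data were seen), the log2 fold change ran from -0.10 to 0.0032 for Eomes 1426001_at, -0.19 to -0.022 for Eomes 1435172_at, -0.15 to 0.11 for Mixl1, -0.82 to 0.058 for Mesp1, -0.12 to 0.16 for Gsc, -0.29 to 0.14 for Evx1, -0.72 to 0.22 for Lhx1 1421951_at and -0.51 to 0.22 for Lhx1 1450428_at. The lowest value came without control 2 for all 8. Kdr ran from -0.68 to 0.60 with arrays left out and was -0.0022 after median centring, and Etv2 ran from 2.99 (adjusted p = 0.0490 by limma, without control 2) to 4.05. No other setting called Etv2. Its adjusted p by limma was 0.837 in the main fit and next lowest, 0.14, with array weights. The count of called probe sets, 1 and higher, was 0 and 0 after median centring (536 at an unadjusted p under 0.05) and ran from 0 to 1 with arrays left out. The replicate block, which the main fit did not use, changed no call, with 1 probe set called and Mesp1 at -0.26. With it the SE was 0.25 for Mesp1, against 0.45 in the main fit. It was smaller for every member probe set except Eomes 1426001_at, at 0.086 against 0.083. Of 63 recomputed relations 60 kept their side of the threshold. Eomes with Evx1 was lost at r = 0.801 (exact permutation p = 0.0556) after quantile normalization and 0.832 (0.0333, adjusted 0.05) after centring, and Eomes with Mixl1 passed at 0.908 on deviations from group means (0.00417). The causes were not tested. Signal over background could not be read from the deposited levels.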
